A study of Tupaia belangeri with 6 samples.

Results

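The nuclei described here were PVALB/TLL1 basket-type interneuron nuclei of the tree shrew (TS; Tupaia belangeri) hippocampus, measured by single-nucleus RNA sequencing. They were chosen by their own transcript counts. A member had at least 200 detected genes, at least 1 UMI (a counted RNA molecule) of NXPH1, a sum of at least 4 UMIs over TLL1, BTBD11, KCNC1 and PVALB with at least 1 from TLL1 or PVALB, no UMI of SST or RERG, at most 1 UMI over VIP, CALB2 and LAMP5, and no UMI of MOG, PDGFRA, AQP4, PTPRC or NEUROD6. Of 37603 nuclei in the series, 230 (0.612%) met the rule. The 15 genes of the rule are therefore given as a description and not as results.

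The series held 6 hippocampal libraries, 1 per animal. The 3 ALP libraries (ALP 1 to ALP 3, titled AD) came from aged TSs with Alzheimer's-like pathology, picked by poor performance in a pipeline maze, and the 3 control libraries (Control 1 to Control 3, titled Normal) came from age-matched healthy TSs. No transgene or drug is given for either group. ALP was defined by behavior in naturally aged animals, and the hippocampal subregion and the sex of each animal were not given with the libraries. Transcripts of the Y-linked genes KDM5D, USP9Y and DDX3Y were found in the members of Control 1 (8 UMIs), Control 2 (30 UMIs) and ALP 2 (18 UMIs) and at 0 UMIs in Control 3, ALP 1 and ALP 3, so the groups were unbalanced for them. No pair of libraries shared more than 18 barcodes (at most 0.465% of the smaller library), and the most alike of the 15 pairs of libraries still differed by 1.34 times the sampling noise (chi-square per degree of freedom).

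Parvalbumin basket cells are inhibitory interneurons that arise in the medial ganglionic eminence (MGE) under the transcription factors LHX6 and SOX6. They wrap the cell bodies of principal neurons with GABA-releasing terminals and fire fast, brief spikes, which rely on Kv3 potassium channels such as KCNC1 and KCNC2. In the hippocampus they pace gamma rhythms and receive strong excitatory drive under the control of the neuregulin receptor ERBB4. Their nearest relatives are the SST interneurons, also of MGE origin, which contact dendrites, while ADARB2 interneurons come from the caudal ganglionic eminence.

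Control 1, Control 2 and Control 3 gave 25, 35 and 67 members, and ALP 1, ALP 2 and ALP 3 gave 40, 44 and 19. As a share of all nuclei this was 0.285% (95% Wilson interval 0.193 to 0.420), 1.16% (0.837 to 1.61) and 0.841% (0.663 to 1.07) in the controls. The ALP libraries held 0.786% (0.578 to 1.07), 0.615% (0.459 to 0.825) and 0.340% (0.217 to 0.530), and the intervals cover counting error only. The highest and the lowest share were both control libraries, so the groups overlapped. The mean share was 0.763% ± 0.444 (SD, n = 3) in controls and 0.580% ± 0.225 (SD, n = 3) in ALP, a difference of -0.182 percentage points (two-sided exact permutation p = 0.5, smallest possible 0.1). The sign of that difference turned to 0.0616 points when the study's own limit of 2500 genes and 5% mitochondrial UMIs was applied, and to 0.0175 points without Control 2. Without Control 1 the difference was -0.421 points and the groups no longer overlapped (exact permutation p = 0.2). A share is relative to all other nuclei of a library, and Control 2 also stood apart by having 3011 nuclei and a median of 5096.5 UMIs in its other nuclei, against 1745 to 2449 in the remaining 5 libraries. Per 100 SST/RERG nuclei there were 34.0 ± 19.1 members in controls and 33.7 ± 4.09 in ALP (mean ± SD, n = 3, exact permutation p = 1.0).

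The members were deep nuclei. Their median UMI count was 9087, 8008 and 7756 in Controls 1 to 3 and 6800.5, 8294 and 8421 in ALP 1 to 3, above the other nuclei of each library. Overlapping groups and a difference of -445 UMIs (exact permutation p = 0.6) left no detectable difference in depth, and the sign turned to 73.8 UMIs without ALP 1. The rule asks for a sum of UMIs and so is met more easily by deep nuclei, and 84.0%, 85.7% and 79.1% of the members of Controls 1 to 3 and 57.5%, 77.3% and 57.9% of those of ALP 1 to 3 had more than 2500 genes, without overlap. The study's filter would remove those nuclei, a larger part of the control members. The median genes per member was 3290 ± 127 in controls and 2708 ± 132 in ALP (mean ± SD of 3 libraries), also without overlap (exact permutation p = 0.1, the smallest possible).

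**Figure D1:**
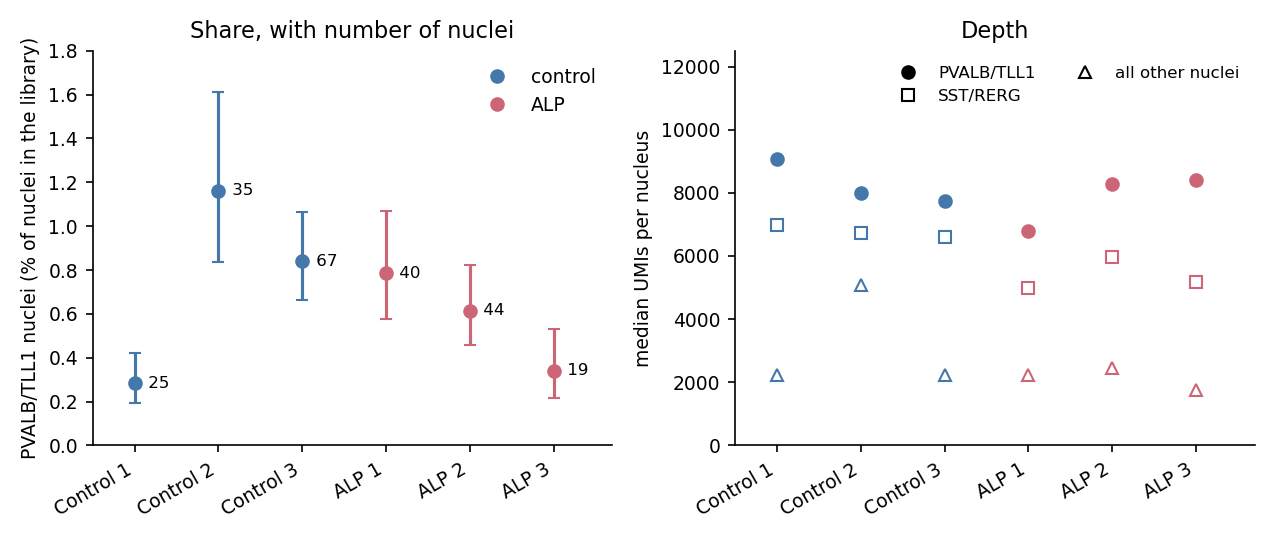
Left, PVALB/TLL1 nuclei as a percentage of the nuclei of each library with 95% Wilson intervals and the number of members beside each point. Right, the median UMIs per nucleus in members (filled circles), SST/RERG nuclei (squares) and all other nuclei (triangles) of each library, where members range from 6800.5 to 9087. Blue is control and red is ALP.

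Among the genes of the rule, TLL1, a secreted tolloid-like protease, had 244, 425 and 494 CPM (counts per 1000000 UMIs) in the members of Controls 1 to 3 and 594, 376 and 264 CPM in ALP 1 to 3. PVALB, the calcium buffer that names the class, had 75.4, 34.4 and 31.3 CPM in controls and 96.0, 76.9 and 70.9 CPM in ALP, from 111 UMIs in all. Both genes were found in 59 members, TLL1 alone in 153 and PVALB alone in 18, so most members entered through TLL1. KCNC1, a Kv3 channel, ranged from 361 to 481 CPM and BTBD11, a postsynaptic BTB-domain protein of interneurons, from 122 to 195 CPM over the 6 libraries. The sum over the 4 genes had a median of 7.5 and a maximum of 27 UMIs, and 45 members stood at the minimum of 4. These 45 nuclei had 8145 CPM of ERBB4 and 38.1 CPM of LHX6, and the 35 nuclei just outside, with a sum of 3, had 6908 and 13.7 CPM. RELN, a glycoprotein of other interneurons, was at 3.18 CPM just inside and 241 CPM just outside. The 77 members with a PVALB UMI and the 153 without one had 11905 and 11683 CPM of ERBB4 and 38.5 and 33.1 CPM of LHX6. Other genes were less alike. Members without a PVALB UMI had more NPY (49.2 against 7.69 CPM), RELN (17.0 against 4.62) and GRIN3A (15.3 against 3.08). They had less SOX6 (173 against 262 CPM) and SATB1 (82.3 against 146). Differences between these parts of the members were not tested.

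The label was then set against markers that the rule did not use. LHX6, the MGE transcription factor, was found in 25.7% of members (95% Wilson interval 20.4 to 31.7) at a median depth of 7806.5 UMIs, and in 20.9% to 37.1% of the members of each library. It was found in 1.08% of nuclei with at least 2 MOG UMIs (oligodendrocytes) and 0.213% of nuclei with at least 2 SLC17A7 UMIs (excitatory neurons), the latter with library medians of 7854 to 10842.5 UMIs. After thinning each nucleus to 2000 UMIs the share was 7.55% in members, 0.526% in the oligodendrocyte nuclei and 0.0283% in the excitatory nuclei. ERBB4 was found in 223 of 230 members, with a median of 88.5 UMIs per member and a maximum of 386. It was also found in 92.7% of the oligodendrocyte nuclei, 77.3% of SST/RERG nuclei and 28.2% of the excitatory nuclei (87.7%, 61.0% and 16.9% after thinning, against 96.5% in members), so its detection alone did not mark the members. SYT2, the fast synaptotagmin of basket terminals, gave 39 UMIs (20.7 CPM against 2.37 CPM in SST/RERG nuclei), and SULF1, a heparan sulfatase, 67 UMIs (35.5 against 4.10 CPM). TAC1, a neuropeptide precursor often found in parvalbumin cells, gave only 3 UMIs in the members (1.59 against 49.8 CPM). SLC9A9, an endosomal sodium-proton exchanger also on the list of basket markers, was lower in members (66.7 against 252 CPM). Of the 5 genes of that list tested against SST/RERG nuclei, 4 were higher and 1, SLC9A9, was lower. The GABA genes could not check the label, since GAD2 and SLC32A1 were at 0 UMIs in every nucleus of all 6 libraries and GAD1, the GABA-synthesizing enzyme, gave 1 or more UMIs in 15 members. UNC5B and PTHLH, which are high in axo-axonic chandelier cells, gave 38 and 10 UMIs (20.1 against 2.16 CPM and 5.29 against 0 CPM in SST/RERG nuclei), while SCUBE3, on the same chandelier list, was at 1.59 against 13.8 CPM. Of the 8 chandelier markers, 7 were in the annotation and 3 to 5 were detected in each library, and they summed to 32.0 to 45.1 CPM over the 6 libraries, and basket and chandelier cells were not told apart by the rule or by these markers.

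Markers of other cells were not absent, but part of most sums was fixed by the rule. It held at 0 a gene of the excitatory (NEUROD6), oligodendrocyte (MOG), OPC (PDGFRA), astrocyte (AQP4) and microglial (PTPRC) lists. In the list of CGE interneurons it limited VIP, CALB2 and LAMP5 to at most 1 UMI per nucleus. Summed over 8 genes, excitatory markers stood at 67.5 to 177 CPM over the 6 libraries with CAMK2A as the most abundant, and 12 of 230 members had a SLC17A7 UMI. Oligodendrocyte markers (8 genes, led by ST18 in 4 of 6 libraries) ranged from 12.5 to 133 CPM and endothelial and mural markers from 10.7 to 35.5 CPM. Microglial markers had 39.9, 34.4 and 36.8 CPM in Controls 1 to 3 and 21.3, 13.7 and 19.3 CPM in ALP 1 to 3. The groups did not overlap, from 3 to 20 UMIs per library, and the part of this list in the gene differences below was not tested. Astrocyte markers, mostly SLC1A3, ranged from 7.11 to 96.7 CPM, with the lowest and the highest value both in ALP. The SST list, in which SST and RERG are at 0 by the rule, ranged from 102 to 151 CPM in controls and from 116 to 214 CPM in ALP, led by GRIK3 or NPY. Within it NPY had 0, 9.38 and 29.5 CPM in Controls 1 to 3 and 64.0, 57.7 and 51.6 CPM in ALP 1 to 3, without overlap, from 19 and 47 UMIs. OPC markers, nearly all of them LHFPL3, ranged from 537 to 591 CPM in controls and from 296 to 346 CPM in ALP, and the part of this list in the gene differences below was not tested. The list of 12 markers of CGE interneurons summed to 144 to 197 CPM in controls, 96.0 and 198 CPM in ALP 1 and ALP 2, and 960.3 CPM in ALP 3. In ALP 3, ADARB2 gave 116 of the 149 UMIs of that list, of which 101 came from 1 nucleus, so a single ADARB2-rich nucleus sat among its 19 members. No doublet caller was run on the 230 nuclei.

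To see what sets these nuclei apart, their UMIs were summed per library and compared with those of 695 SST/RERG nuclei of the same 6 libraries (at least 2 UMIs over SST and RERG, no TLL1 or PVALB, other limits alike). ERBB4, GABRB2, SCN9A and MEF2C were among the genes higher in members, and RELN, NPY, GRIN3A and CACNA2D3 were among those lower. Of 5966 features tested, 1310 (22.0%) passed (edgeR adjusted p under 0.05 and log2 fold change beyond 0.25). Of these, 665 (11.1%) were higher and 645 (10.8%) were lower in members, and 1924 (32.2%) had an unadjusted p under 0.05. The count was 842 without library as a block and 1975 (665 higher, 1310 lower) with no filter on low counts. The study's filters left 267 calls among 1456 features. Members were also deeper than SST/RERG nuclei in each library (SST/RERG medians 4997.5 to 6996 UMIs), and thinning both to 2000 UMIs left 700 features, of which 153 passed.

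ERBB4 had 14164, 12828 and 13008 CPM (scaled by TMM) in the members of Controls 1 to 3 and 15162, 13068 and 10811 CPM in ALP 1 to 3. The SST/RERG nuclei had 3219, 1400.2 and 1419 CPM in controls and 1298, 1652 and 1876 CPM in ALP, so the 2 types did not overlap in any library. The difference was 2.93 ± 0.15 (log2, SE; edgeR adjusted p = 5.15e-11). None of the other neuregulin-pathway genes tested (NRG2, NRG3, PTPN5) passed, so 1 of 4 was higher and 0 were lower, with a median log2 fold change of -0.04 against 0.00 over all features.

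The genes with the largest rises and falls were chosen by rank among called symbols with at least 100 UMIs and the same direction in 6 of 6 libraries. These conditions were met by 386 named symbols on the higher and 387 on the lower side. The same direction alone, called or not, held for 638 features (10.7%) on the higher and 686 (11.5%) on the lower side of all those tested. Highest in members were GFRA1, a GDNF family co-receptor (80.9 ± 49.7 CPM against 1.56 ± 2.03, mean ± SD over 6 libraries; log2 fold change 5.21), and ANO1, a calcium-activated chloride channel (131 ± 44.2 against 4.69 ± 1.84; 4.65). They were followed by SEMA3D, a secreted semaphorin (3.52), HTR1F, a serotonin receptor (3.40), COL11A1, a fibrillar collagen chain (3.36), ARMH4 (3.21), HS6ST3, a heparan sulfate sulfotransferase (3.06), ZBTB7C (3.01), PLOD2, a collagen lysyl hydroxylase (3.00), ERBB4, and SPARCL1, a matrix glycoprotein (2.89). ANO1 lay between 97.8 and 209 CPM in members and between 2.60 and 7.26 CPM in SST/RERG nuclei, with no overlap. COL11A1 had 293, 494 and 433 CPM in control members and 511, 459 and 551 CPM in ALP members, against 22.7 to 64.8 CPM in SST/RERG nuclei. GFRA1 rested on 119 UMIs in members and 7 in SST/RERG nuclei.

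Lowest in members was RELN, at 37.3, 3.38, 16.1, 4.33, 0 and 47.9 CPM over Controls 1 to 3 and ALP 1 to 3 against 339.9 to 1043 CPM in SST/RERG nuclei (log2 fold change -5.63). NPAS1, a transcriptional repressor of interneurons, gave 4 UMIs in members and 308 in SST/RERG nuclei (-4.69). ANKFN1 (-4.62), GRIN3A, an NMDA receptor subunit (-4.55), STK32B, a kinase (-4.16), and FRMD6 (-4.00) came next. NPY, a neuropeptide of many SST cells, had 42.0 ± 32.6 CPM in members and 682 ± 518 CPM in SST/RERG nuclei (-3.69). The remaining genes of the rank were IL1RAPL2, a synaptic adhesion receptor (-3.54), GDA, guanine deaminase (-3.51), SPON1, a secreted matrix protein (-3.46), MAN1A1, a mannosidase (-3.43), and NIBAN1 (-3.43).

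**Figure D2:**
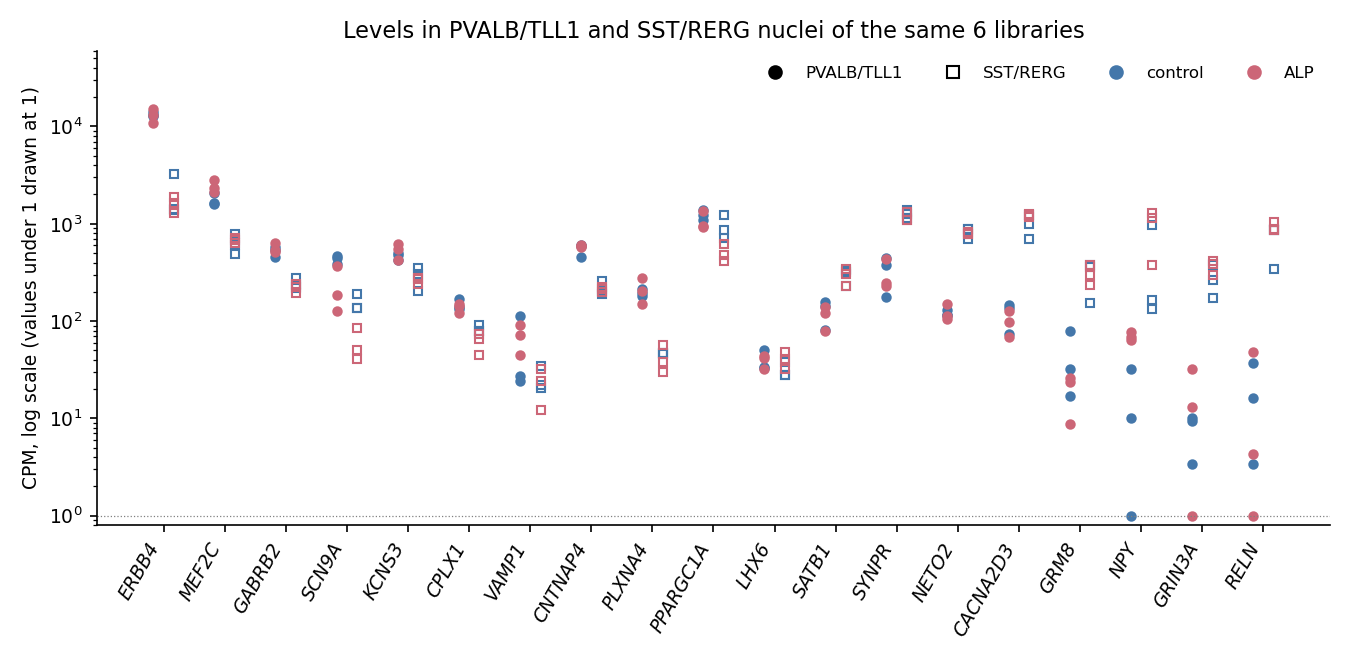
CPM (log axis) of 19 genes in PVALB/TLL1 nuclei (filled circles) and SST/RERG nuclei (open squares), 1 point per library, blue for control and red for ALP. ERBB4 lies between 10811 and 15162 CPM in the 6 member sums and at 3219 CPM or less in SST/RERG sums, while RELN, GRIN3A and NPY lie lower in members and LHX6 overlaps.

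The lists of channels and receptors were then read as counts, and the list members named for this comparison were picked as examples after their values were seen. Over all 5966 features 22.0% passed, 11.1% higher and 10.8% lower. Of 9 MGE transcription factors tested, 1 was higher, 4 were lower and 4 did not pass (median log2 fold change -0.33). MEF2C, an activity-dependent factor, was higher (2090.5 ± 444 against 653 ± 100.1 CPM, 1.66 ± 0.12), and MAF (-1.28), SATB1 (-1.30), DLX2 (-0.87) and DLX6 were lower. SATB1, a chromatin organizer of SST cells, had 120.2 ± 33.2 CPM in members and 294 ± 50.4 CPM in SST/RERG nuclei, with no overlap. LHX6 had 39.1 ± 7.49 and 35.8 ± 8.11 CPM (0.16 ± 0.20, edgeR adjusted p = 0.651), and SOX6 did not pass either (-0.33 ± 0.14, edgeR adjusted p = 0.111).

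Of 6 fast-spiking potassium and HCN channel genes outside the rule, 4 were higher, 1 was lower and 1 did not pass (median 0.51). KCNS3, a modifier subunit of Kv2 channels found in basket cells, had 475, 426 and 496 CPM in control members and 619, 550.0 and 423 CPM in ALP members, against 203 to 351 CPM in SST/RERG nuclei (0.88 ± 0.12). KCNC2, the second Kv3 subunit, was also higher (0.38 ± 0.11), as were KCNAB2, an auxiliary subunit (0.91), and KCNN2, a small-conductance calcium-activated channel (0.64). KCNMA1, the BK channel, was lower (-0.42). Of 8 sodium channel genes, 2 were higher, 1 was lower and 5 did not pass (median 0.22). SCN9A (331 ± 141 against 106 ± 57.2 CPM, 1.66) and FGF13, a channel partner (1.89), were higher, and SCN2A was lower (-0.42). The axonal channel SCN8A was at 0.28 ± 0.11 and did not pass (edgeR adjusted p = 0.0643). Of 10 calcium channel genes, 3 were higher and 4 were lower (median -0.17). CACNA1A, the P/Q-type channel that triggers release at basket terminals, was higher (0.64 ± 0.11), as was CACNA1D (0.46), while CACNA2D3 (108 ± 32.7 against 1099.6 ± 223 CPM, -3.31) and CACNA1E, the R-type channel (-1.57), were lower.

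At the synapse, 3 of 18 release genes were higher, 1 was lower and 14 did not pass (median 0.02). The share that passed lay near the 22.0% of all features, so this list was not set apart by its count. Those higher were CPLX1, complexin (143 ± 16.4 against 72.3 ± 16.1 CPM, 0.91 ± 0.15), VAMP1, the vesicle SNARE (1.11 ± 0.27), and SYT7, a calcium sensor (1.03 ± 0.28), and SYNPR, synaptoporin, was lower (-1.96). VAMP1 rested on 88 and 111 UMIs. Of 13 GABA receptor and gephyrin genes, 4 were higher, 3 were lower and 6 did not pass (median 0.05). GABRB2, a receptor subunit of fast inhibition, had 582, 457 and 544 CPM in control members and 632, 537 and 519 CPM in ALP members, against 196 to 276 CPM in SST/RERG nuclei (1.23 ± 0.11). GABRA3 (0.82) was also higher, and GABRG1 (-3.06), GABRA2 (-1.14) and GABRB1 (-1.03) were lower. SLC6A11, a GABA transporter, was also lower (-1.04).

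Glutamate receptor genes were mostly lower among those called. In the AMPA and kainate list, 2 of 12 were higher, 5 were lower and 5 did not pass (median -0.20), with CACNG2, stargazin (0.58), and GRIA3 (0.34) higher and NETO2, a kainate receptor partner (121 ± 16.1 against 806 ± 72.4 CPM, -2.71), and GRIK2 (-0.65) lower. The sign of GRIA3 turned under the study's filters. In the list of NMDA and metabotropic receptors, 1 of 7 was higher and 5 were lower (median -1.61). GRM5 was higher (0.41), and GRM8 (-3.26) and GRIN2A (-1.34) were lower, beside GRIN3A. Among 6 calcium buffers and sensors, 0 were higher and 3 were lower (median -0.40), including NECAB1 (-2.69) and SLC8A1, the sodium-calcium exchanger (-1.66).

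Of 17 synaptic adhesion genes, 5 were higher, 6 were lower and 6 did not pass (median -0.09). CNTNAP4, which acts at parvalbumin terminals (569.8 ± 56.8 against 215 ± 23.4 CPM, 1.41), and CNTNAP2 (8341 ± 1054 against 3789 ± 642 CPM, 1.15) were higher, and the neurexin NRXN3 (-0.96) was lower. For axon guidance, 3 of 14 were higher and 6 were lower (median -0.35), with PLXNA4, a semaphorin receptor, higher (2.26) and ROBO2 (-1.36) and DCC (-2.48) lower. In the mitochondrial list 1 of 5 was higher and 0 were lower (median 0.45). That gene was PPARGC1A, the regulator of mitochondrial biogenesis, at 1104, 1218 and 1397 CPM in control members and 1369, 919 and 949 CPM in ALP members against 722 ± 298 CPM in SST/RERG nuclei (0.73 ± 0.14). Perineuronal net genes gave 0 calls of 3 tested, with PTPRZ1 at -0.21 and NCAN at 0.32. Of 4 neuromodulator receptors, 1 was lower (HTR2A, a serotonin receptor, with 18.9 ± 18.3 against 87.4 ± 22.1 CPM). Of 13 Alzheimer's disease genes, SORL1, a sorting receptor, was higher (0.53), CLU, clusterin, was lower (-1.14) and 11 did not pass, among them APP (-0.12) and MAPT (-0.21). The 1 stress gene tested did not pass.

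**Figure D3:**
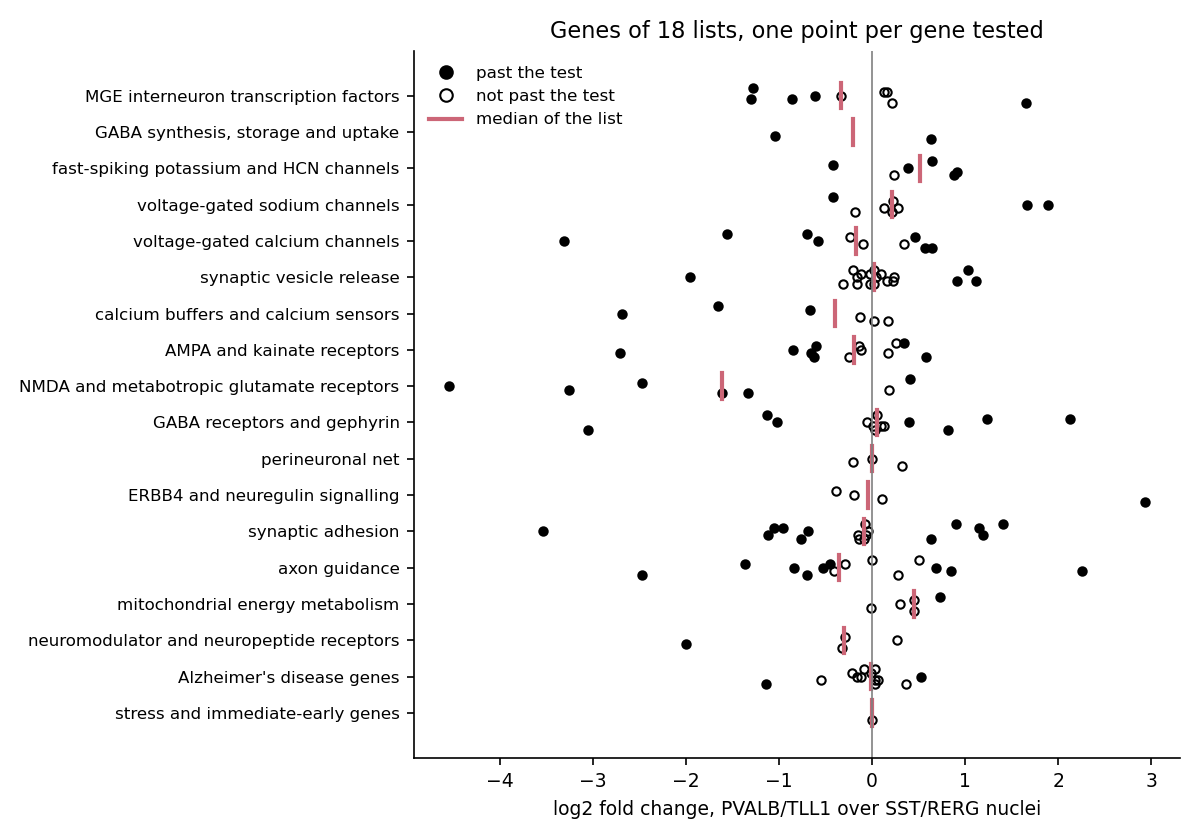
Log2 fold change of PVALB/TLL1 over SST/RERG nuclei for each gene tested in 18 lists, filled where the gene passed the test, with a red bar at the median of the list. Potassium channel genes lie mostly to the right (median 0.51) and NMDA and metabotropic glutamate receptors to the left (median -1.61).

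Against 65 ADARB2 nuclei (at least 3 ADARB2 UMIs and 1 UMI of GAD1 or GAD2), 377 of 2021 features passed (18.7%), with 184 higher (9.10%) and 193 lower (9.55%) in members. ALP 3 gave only 2 of the 65 nuclei and Control 2 and Control 3 gave 10 each. In 228 features (11.3%) members were higher in 6 of 6 libraries and in 146 (7.22%) they were lower, and 601 (29.7%) had an unadjusted p under 0.05. With a UMI of DLX6 or DLX6A-AS-1 in place of GAD1 and GAD2, an alternative chosen after seeing the data, there were 1261 ADARB2 nuclei and 1792 calls among 6992 features, which included 352 of the 377. Highest by the rank were SFMBT2 (275 ± 59.7 against 12.2 ± 24.1 CPM, log2 fold change 4.41), CUX2, a homeobox factor (3.82), HS6ST3 (3.57), CDH20, a cadherin (3.14), PDE2A, a phosphodiesterase (3.07), SOX6 (295 ± 86.4 against 45.4 ± 40.4 CPM, 2.90) and FAM135B (2.87). The next were SDK1 (2.55) and COL11A1 (2.47), then GPC6 (2.45), THSD7A (2.45) and CNTNAP3 (2.37). SFMBT2 and CUX2 gave 4 UMIs each in the ADARB2 nuclei. Lowest were RELN (-5.81), PBX3, a homeobox factor of CGE cells (37.6 ± 12.2 against 775 ± 358 CPM, -4.42), PRR16 (-3.72), KCNQ5, an M-current channel (-3.55), COBL (-3.29) and SORCS1, a sorting receptor (-3.09). They were followed by GAS7 (-3.03), CHSY3 (-2.98), FRAS1 (-2.62), EGFEM1 (-2.62), TCERG1L (-2.50) and FAT3, an atypical cadherin (-2.28).

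By list, the MGE transcription factors gave 2 higher (SOX6 and MEF2C, 1.64) and 1 lower (DLX6, -2.11) of 6 tested against ADARB2 nuclei. Of 5 potassium and HCN channel genes, 2 were higher, KCNMA1 (1.47) among them, and KCNN2 was lower, while KCNC2 stood at 0.59 ± 0.24 and did not pass. Of 8 sodium channel genes, 3 were higher, SCN9A (1.79) and FGF13 (1.19) among them, and 1 was lower. Of 3 mitochondrial genes, PPARGC1A was higher (1384 ± 253 against 264 ± 108 CPM, 2.29 ± 0.25), and the other 2 did not pass. Of 9 release genes, CPLX1 (2.12) was higher and ERC2 (-0.83) and SYN3 (-1.02) were lower. Of 8 calcium channel genes, CACNA1A (1.09) and CACNB4 (0.88) were higher and CACNA2D1 (-1.87), CACNA2D3 (-1.28) and CACNA1C (-0.75) were lower. The AMPA and kainate receptor list gave 3 higher, GRIA3 (2.03) and CACNG2 (1.58) among them, and 2 lower of 10, and the adhesion list gave 3 higher, led by CNTNAP2 (2.20), and 4 lower, DSCAM (-2.19) among them, of 14. Of 10 GABA receptor genes 2 were higher and 2 lower, GABRA2 (-1.64) among them, and of 5 NMDA and metabotropic receptor genes 2 were higher and 2 lower, GRIN2A (-1.45) among them. Of 12 axon guidance genes 2 were higher and 4 were lower. ERBB4, high in both types, had 15731 ± 1912 CPM in members and 9662 ± 2427 CPM in ADARB2 nuclei (0.74 ± 0.20). Over all 2021 features 18.7% passed, 9.10% higher and 9.55% lower, and the median log2 fold change was 0.02.

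The next question was what changed in these nuclei with ALP. Few features passed, and the genes of the rule were in the fit but were not read as results. Among named genes GSTP1, MPND and IZUMO4 were higher and ARMC2 was lower in ALP. In all, 10 of 4466 features passed (0.224%; edgeR adjusted p under 0.05 and log2 fold change beyond 0.25), 5 higher (0.112%) and 5 lower (0.112%). At an unadjusted p under 0.05 there were 584 (13.1%), and in 794 features (17.8%) the ALP and control libraries did not overlap, 399 with ALP higher (8.93%) and 395 with ALP lower (8.84%). These counts include genes of the rule. With those set aside 4461 features were left, of which 583 had an unadjusted p under 0.05 and 793 did not overlap, with 5 higher and 5 lower calls as before. The number of calls rested on single libraries, with 99 calls without Control 1, 0 without ALP 1, 1 without ALP 2 and 2 without Control 3. DESeq2 gave 53 calls, upper-quartile scaling 18 (7 higher, 11 lower), no filter on low counts 223, and a model term marking the 3 libraries that held Y-linked transcripts, chosen after seeing the data, 59. Each of these last 4 fits included all 10 calls. Summed UMIs of 19 to 67 nuclei per library do not tell fewer expressing nuclei from less RNA per nucleus.

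GSTP1, a glutathione transferase that clears reactive compounds, had 84.9, 37.9 and 32.4 CPM in Controls 1 to 3 and 201, 148 and 252 CPM in ALP 1 to 3. All 3 ALP libraries lay above all controls, from 45 control and 121 ALP UMIs (log2 fold change 2.02 ± 0.36, edgeR adjusted p = 0.0453). MPND, a deubiquitinase-family protein, had 349, 303 and 297 CPM in controls and 1133, 677 and 684 CPM in ALP (1.40 ± 0.22, edgeR adjusted p = 0.0241). IZUMO4, a member of a sperm-egg fusion protein family, had 193, 172 and 158 CPM in controls and 595, 381 and 326 CPM in ALP (1.34 ± 0.24, edgeR adjusted p = 0.0453). ARMC2, an armadillo-repeat protein of cilia and flagella, had 184, 145 and 198 CPM in controls and 71.6, 55.9 and 65.1 CPM in ALP (-1.47 ± 0.26, edgeR adjusted p = 0.0453). None of these 4 genes overlapped between the groups. Over the alternatives in which each was tested, the adjusted p ranged from 1.69e-06 to 0.180 for GSTP1, from 1.41e-06 to 0.408 for MPND, from 6.61e-05 to 0.620 for IZUMO4 and from 0.00113 to 0.180 for ARMC2, with no change of sign.

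Genes that filled the rank had no overlap between groups but did not pass the test. On the higher side these were DIPK1B (log2 fold change 1.52), the autophagy protein MAP1LC3A (1.08), the complex I assembly factor NDUFAF3 (1.70), GFRA1 (1.57), the cadherin CDH9 (1.03), the complex I subunit NDUFB10 (1.22) and PTOV1 (1.13), with edgeR adjusted p from 0.0640 to 0.0715. GFRA1, the largest rise by rank over SST/RERG nuclei, had 33.0, 34.4 and 50.6 CPM in controls and 139, 92.0 and 147 CPM in ALP. On the lower side were DPYD, a pyrimidine-degrading enzyme (-1.55), the glypican GPC6 (-0.78), ITGBL1 (-2.25), SKA2 (-1.35), PDCD10 (-1.20), NCKAP5 (-1.90), HIKESHI, a nuclear import factor for HSP70 (-1.06), SLC6A4, the serotonin transporter (-1.35), and the sulfotransferase CHST9 (-1.91), with edgeR adjusted p from 0.0658 to 0.100.

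**Figure D4:**
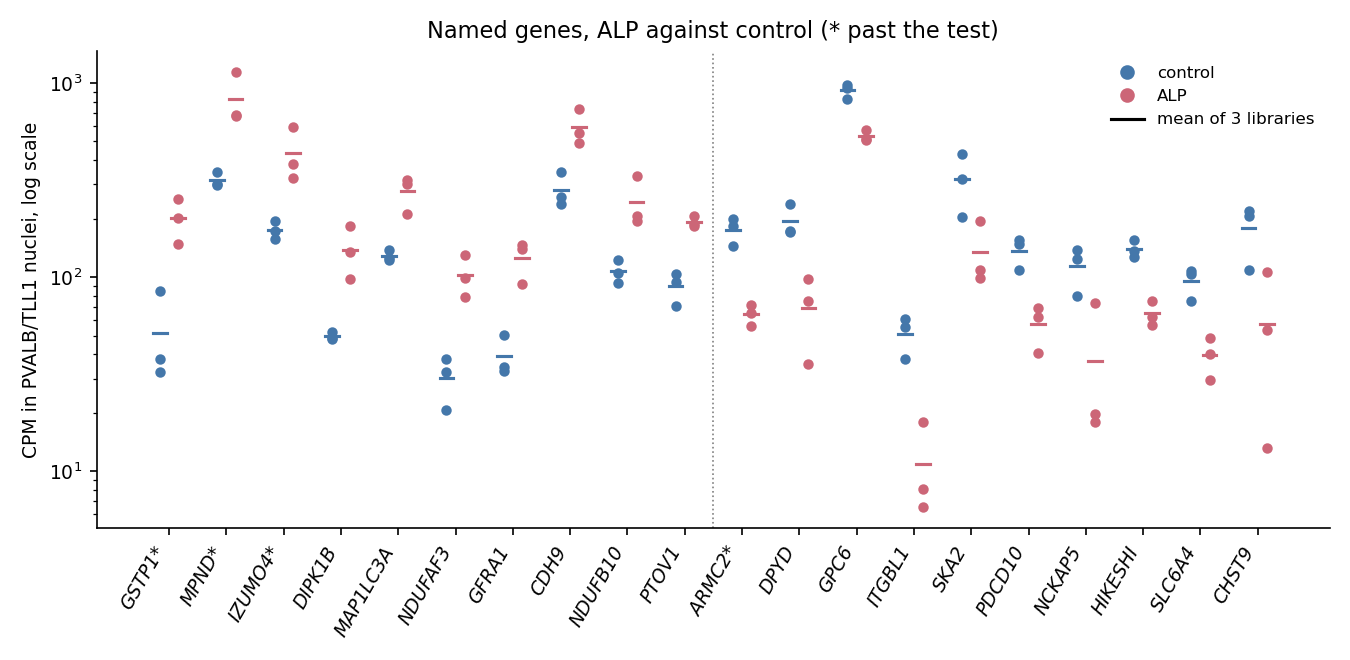
CPM (log axis) in PVALB/TLL1 nuclei of the 20 genes named by rank, 1 point per library with the mean of 3 libraries as a bar, blue for control and red for ALP. The asterisk marks GSTP1, MPND, IZUMO4 and ARMC2, which passed the test, and the dotted line parts genes higher in ALP from genes lower in ALP.

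No gene of the 18 functional lists passed in this comparison, and the medians of the lists with at least 5 genes tested lay between -0.32 (calcium channels) and 0.08 (potassium and HCN channels), against 0.01 over all features. NPY, from the SST marker list, did not pass either (1.97 ± 0.55, edgeR adjusted p = 0.115, and 0.00845 with no filter on low counts), and the part of SST-type RNA in the ALP differences was not tested. Of the 12 CGE interneuron markers, 2 were tested, and both had a positive value with an unadjusted edgeR p under 0.05 that did not pass. CCK, a neuropeptide of many CGE cells, had 47.2, 82.6 and 72.8 CPM in controls and 98.5, 131 and 89.6 CPM in ALP, without overlap (0.66 ± 0.30, edgeR adjusted p = 0.376). ADARB2 overlapped between the groups (3.28 ± 1.16, edgeR adjusted p = 0.241), and 116 of its 133 UMIs in ALP members came from ALP 3. The value was 0.09 without ALP 3 and 0.012 at a minimum sum of 3, and with no filter on low counts it passed (3.18, edgeR adjusted p = 4.31e-17). The part of CGE-type RNA in the ALP differences was not tested either. Of the 140 list genes tested, 14 (10.0%) had an unadjusted p under 0.05, 6 with a higher and 8 with a lower value in ALP, against 13.1% over all features, so the lists held no larger share than the background. The 4 with the smallest p are given as values only. SNAP25, the release SNARE, had 373, 468 and 492 CPM in controls and 654, 697 and 676 CPM in ALP (0.60 ± 0.17, edgeR adjusted p = 0.132). COX4I1, a subunit of cytochrome oxidase, was at 1.08 ± 0.28 (edgeR adjusted p = 0.101), GABRA4 at 0.76 ± 0.24 (0.177) and SCN9A at -0.87 ± 0.30 (0.208). Of 11 Alzheimer's disease genes tested, SORL1 had the smallest unadjusted edgeR p (0.0599) at -0.58, and APP stood at 0.28 ± 0.17, with 509.7 to 613 CPM in controls and 627 to 749 CPM in ALP. ERBB4 had 11033 to 15669 CPM in ALP and 13051 to 14349 CPM in controls (-0.02 ± 0.15, edgeR adjusted p = 0.984).

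The other 6 features that passed were not named protein-coding symbols. TSORFli2154 (1.54) and LINC-FRMD8-1 (0.89) were higher, and L1RE1li231 (-2.56), ANK3-AS-1 (-2.90), MKL1-AS-2 (-2.76) and ZNF804A-AS-2 (-2.66), the last 3 named as antisense transcripts, were lower in ALP. Whether counting used strand is not given in the sources used here, so antisense features cannot be told from reads of the gene they face. LINC-FRMD8-1, an intergenic feature, was the most abundant of all. It took 18.3%, 21.1% and 15.4% of the members' UMIs in Controls 1 to 3 and 29.5%, 28.0% and 31.5% in ALP 1 to 3, with no overlap. The means were 18.3% ± 2.85 and 29.7% ± 1.77 (SD, n = 3; exact permutation p = 0.1, the smallest possible). In all other nuclei of the same libraries the feature took 17.4% ± 2.89 and 25.9% ± 3.08, again with no overlap, so the difference was present across the library. In SST/RERG nuclei it took 17.2% ± 3.99 and 24.4% ± 3.96, with overlap (exact permutation p = 0.2).

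Of 352 antisense-named features tested in members, 3 passed, all lower in ALP. An unadjusted p under 0.05 was found for 132 of these 352, 124 lower and 8 higher in ALP. Over all features it was found for 584 of 4466 (13.1%), a smaller share than in this class. The median log2 fold change of the class was -0.58 against 0.03 for named genes. Their share of the members' UMIs was 6.52%, 6.60% and 10.6% in Controls 1 to 3 and 4.86%, 4.36% and 4.04% in ALP 1 to 3, without overlap (exact permutation p = 0.1, the smallest possible). The share in all other nuclei was 8.01% ± 1.82 in controls and 5.05% ± 0.453 in ALP, also without overlap. In SST/RERG nuclei it was 7.84% ± 2.04 in controls and 4.83% ± 0.402 in ALP, again without overlap. Members of ALP libraries also held fewer genes at equal depth. At 2000 UMIs the median was 1133, 1136 and 1199 genes in Controls 1 to 3 and 996, 1020.5 and 949 in ALP 1 to 3, without overlap (a difference of -167.5 genes, exact permutation p = 0.1). With LINC-FRMD8-1 left out before thinning, the difference was -35.8 genes (1365 ± 5.86 against 1329 ± 6.71, exact permutation p = 0.1), still without overlap. SST/RERG nuclei of ALP libraries also held fewer genes at 2000 UMIs. The library medians averaged 1164 ± 49.7 in controls and 1075 ± 38.6 in ALP, without overlap (exact permutation p = 0.1). The antisense share and the genes at 2000 UMIs therefore moved with the groups in SST/RERG nuclei as well as in members. Genes at 2000 UMIs were not computed in all other nuclei, and what part these differences had in the gene calls was not tested.

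**Figure D5:**
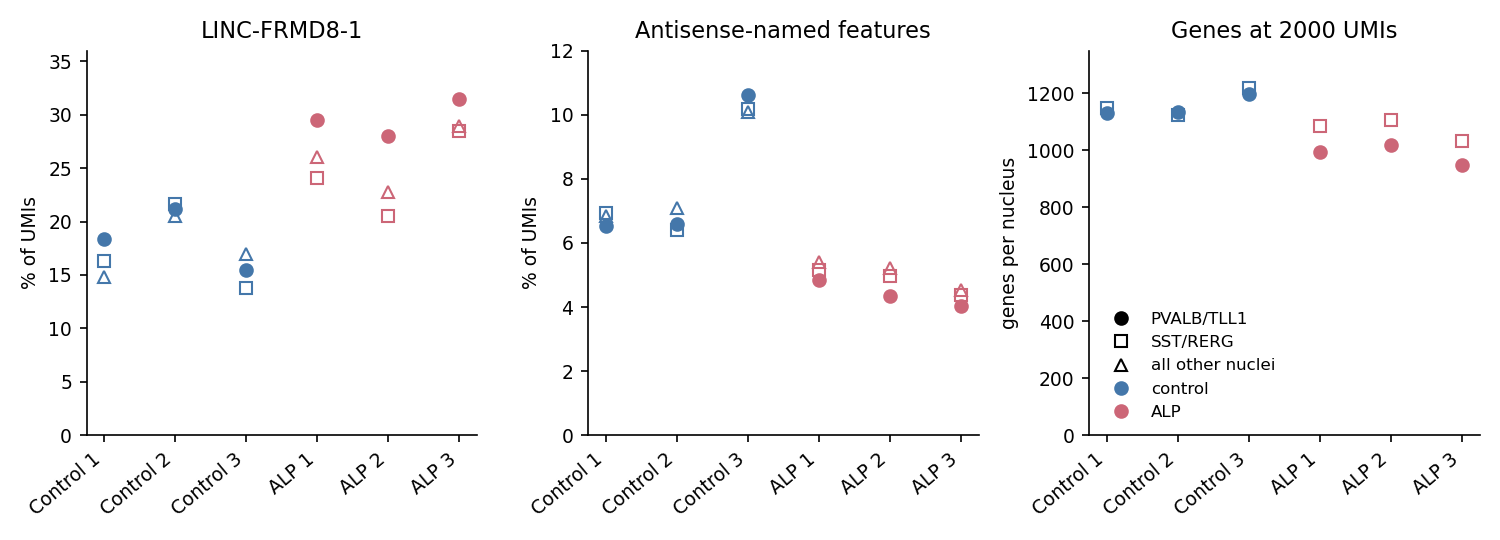
Percentage of UMIs from LINC-FRMD8-1 (left) and from antisense-named features (middle), and median genes per nucleus at 2000 UMIs (right), by library, for PVALB/TLL1 nuclei (filled circles), SST/RERG nuclei (squares) and all other nuclei (triangles, not computed at right). Blue is control and red is ALP. Members separate the groups in all 3 panels, SST/RERG nuclei in the middle and right panels, and all other nuclei in the left and middle panels.

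Whether the ALP differences were particular to these nuclei was tested as an interaction of group and type with SST/RERG nuclei. Of 5966 features, 1 passed (0.0168%), and 347 had an unadjusted p under 0.05 (5.82%). The count was 10 among 1456 features under the study's filters, none of them the 1 above, 14 with no filter on low counts, 0 at a minimum sum of 6 and after thinning (239 and 27 with an unadjusted p under 0.05), 0 without Control 2 (337), 2 without ALP 1 and 6 without ALP 3, while it was 1 without each of the other 3 libraries. The 4 named genes called in members had values in the same direction in the SST/RERG nuclei, which come from the same libraries and are not independent of them. GSTP1 averaged 57.8 ± 11.3 CPM in the control SST/RERG nuclei and 174 ± 62.3 CPM in those of ALP, and MPND had 343 ± 81.4 and 637 ± 53.9 CPM. IZUMO4 had 212 ± 22.2 and 434 ± 81.0 CPM, and ARMC2 had 128 ± 22.6 and 69.1 ± 9.11 CPM. The interaction did not pass for any of these 4 genes (log2 0.47, 0.44, 0.32 and -0.61; edgeR adjusted p from 0.856 to 0.932). Of the other called features, TSORFli2154 (1851 ± 294 and 4069 ± 808 CPM), LINC-FRMD8-1 (183558 ± 44592 and 279058 ± 61106 CPM, overlapping), ANK3-AS-1 (143 ± 78.8 and 20.7 ± 1.26 CPM) and MKL1-AS-2 (84.9 ± 25.4 and 41.3 ± 7.10 CPM) also had the same direction. L1RE1li231 overlapped between the groups in SST/RERG nuclei (23.6 ± 11.2 and 20.5 ± 10.7 CPM), with an interaction of -2.57 ± 0.55 that did not pass (edgeR unadjusted p = 0.000186, adjusted p = 0.431). The interaction for MKL1-AS-2 was -1.76 ± 0.43 (edgeR unadjusted p = 0.000697, adjusted p = 0.524), and ZNF804A-AS-2 was not tested in this fit. GFRA1 gave only 7 UMIs in the SST/RERG nuclei.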

How the data were processed

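Nuclei from frozen hippocampus of 3 ALP and 3 control TSs were profiled with 10x Genomics. The deposited values are raw UMI counts per gene and barcode, made by the authors with Cell Ranger on a TreeshrewDB reference (3.1.0 in the submitters' processing notes, 6.1.2 in the matrix headers); build, strand setting and doublet removal are not given in the sources used here. Libraries held 19182981 to 35898940 UMIs, and members 155167 to 542746. Groups came from the sample titles. The study's upper limit of 2500 genes was not applied.

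Counts were summed per library and type, and tested in edgeR 4.0.16 (quasi-likelihood, TMM, minimum count 10, Benjamini-Hochberg) under R 4.3.3, with library as a block between types. Genes of a rule were left out between types. For ALP against control in members they stayed in the fit of 4466 features and were not read as results. The 2 types compared within a library may share free RNA. CPM are counts per 1000000 UMIs, scaled by TMM in tested comparisons. Shares, depths and RNA make-up were compared by two-sided exact permutation tests over libraries (scipy 1.17.1).

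Named genes were, for ALP, the 10 strongest per direction among called symbols without overlap, filled by smallest p, and up to 4 members per list by smallest p. Between types they were the 12 highest and 12 lowest log2 fold changes among called symbols with at least 100 UMIs and 1 direction in 6 libraries. Features named as antisense, intergenic or numbered copies were not ranked, and some genes that met these rules are not reported here. The members and lists were chosen with earlier results of these data known. Alternatives were the study's filters, a sum of 3 or 6, thinning to 2000 UMIs, DESeq2 1.42.0, upper-quartile scaling, no low-count filter, blocks and leaving out each library. The fit with a term for Y-linked transcripts and the ADARB2 nuclei by DLX6 were added after seeing the data. On simulated data for ALP against control with 4466 genes, 83 of 91 genes changed by 2 on the log2 scale (91.2%) were recovered. In the same data 105 of 109 changed by 3 (96.3%) were recovered, with 6 false calls for both sizes together. Smaller changes were not simulated.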

Additional observations from a re-analysis of the deposited data

Results flagged for a closer look

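ZNF474, a zinc finger gene, was the 1 feature that passed the test of a difference between the ALP effects in PVALB/TLL1 nuclei and in SST/RERG nuclei of the same libraries (difference of log2 fold changes -5.02 ± 0.60, edgeR adjusted p = 0.000579). In members it had 9.32, 145 and 32.1 CPM in Controls 1 to 3 and 4.33, 3.24 and 7.98 CPM in ALP 1 to 3. In SST/RERG nuclei it had 2.41, 70.1 and 33.9 CPM in controls and 87.9, 67.6 and 174 CPM in ALP. Control 2 gave 43 of the 64 UMIs in members, and without Control 2 the difference was -4.44 and no longer passed (edgeR adjusted p = 0.0955).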

How the results depend on the processing

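Against 10 calls between ALP and control, the study's filters gave 1 (594 features tested), which was not among the 10. A minimum sum of 6 gave 2, thinning 1 (189 tested), DESeq2 53 and upper-quartile scaling 18. No low-count filter gave 223 (51 higher, 172 lower) and the Y-linked term 59 (12 higher, 47 lower), and leaving out 1 library gave 0 to 99. Without ALP 1, where edgeR gave 0, 551 features had an unadjusted p under 0.05. Against 1310 calls over SST/RERG nuclei, the study's filters gave 267, thinning 153, no filter 1975 and no library block 842. Against 377 calls over ADARB2 nuclei, the study's filters gave 48, thinning 27, no filter 761 (527 higher, 234 lower) and DLX6 1792. Against 1 interaction call, the study's filters gave 10, a minimum sum of 6 gave 0, thinning 0, no filter 14 and leaving out 1 library 0 to 6. Fewer features were tested under the study's filters and thinning, and thinned sums came from 5 libraries because ALP 3 kept 0 members. Other causes were not tested.

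Correlations of deviations were -0.0712, 0.102 and -0.0175 for libraries of the same replicate number, and -0.0777 to 0.0837 for the other pairs. From these few values it cannot be decided whether the replicate numbers pair the libraries. With the replicate block, 27 features passed between ALP and control, the 10 among them, and the share difference was -0.182 points (exact permutation p = 0.5, smallest possible 0.25).

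The share difference was 0.0616 points under the study's filters and -0.421 to 0.0175 over libraries left out. The depth difference was 102.8 UMIs under the study's filters and -736 to 73.8 over libraries left out. ERBB4 in ALP against control, at -0.02, turned to 0.14 under the study's filters, 0.017 at a minimum sum of 3, and ranged from -0.137 to 0.110 over libraries left out (0.031 without Control 1, 0.110 without ALP 3). Against SST/RERG nuclei, SOX6 turned to 0.014 after thinning, and GRIA3 to -0.099 and PTPRZ1 to 0.22 under the study's filters. Not run were the share among nuclei with 2 GAD1 and GAD2 UMIs, since ALP 3 had none, and depth after thinning, which is fixed.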
